A study of Mus musculus with 12 samples.

Results

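The 9 genes described here in mouse splenic B cells were the E protein genes Tcf3, Tcf4 and Tcf12, the Id genes Id1, Id2 and Id3, and the Ikaros factor genes Ikzf1, Ikzf2 and Ikzf3. Members were the entries of the deposited count table whose trimmed gene symbol equalled 1 of these 9 names, and all 9 were present, as 41 of 63759 transcripts and 9 of 32699 symbols. Of the 9, 8 passed the filter on low counts and were tested among 19125 genes, and 38 of the 41 transcripts were tested among 36629. Id1 did not pass. RNA had been sequenced from 12 libraries in 4 groups of 3: cells labelled Chd4 knockout (KO) after 48 hr of stimulation (replicates 10 to 12), wild-type (WT) cells after 48 hr (7 to 9), unstimulated KO cells at 0 hr (4 to 6) and unstimulated WT cells at 0 hr (1 to 3). Stimulation was ex vivo, with the bacterial B cell activator lipopolysaccharide at 10 µg/ml and the cytokine interleukin 4 at 25 ng/ml. The sources used here do not give the Cre driver, the deleted part of Chd4, or the strain, age or number of animals. Whether replicates were separate mice or cultures is not stated either. A p-value here reflects variation among these libraries alone, which could be technical.

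E proteins are basic helix-loop-helix transcription factors that bind E-box motifs as dimers and activate the genes of the B lineage. Id proteins have the dimerization domain without the DNA-binding part, so they pair with E proteins and keep them off DNA. Ikaros factors are zinc-finger proteins that repress or activate lymphoid genes and recruit corepressors, among them the nucleosome remodelling and deacetylase complex, whose remodelling enzyme is CHD4. In mature B cells the balance of E and Id proteins bears on class switching and on entry into the plasma cell programme.

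Each library held between 38956484 and 53189198 estimated counts. B cell marker genes were abundant throughout, with summed levels of 6040 to 10700 CPM (counts scaled to a common library size). Chd4, the targeted gene, was at 51.3, 38.8 and 74.7 CPM in KO libraries at 48 hr against 102, 96.1 and 123 CPM in WT libraries, and at 100, 70.6 and 92.8 CPM in KO libraries at 0 hr against 99.4, 68.1 and 92.8 CPM in WT libraries. At 0 hr its RNA thus overlapped between the labels, and KO and WT mean the library labelled so throughout. The Chd4 count covers the whole transcript, so it checks the deletion only in part. Xist was lower (log2 fold change -6.38 at 48 hr and -7.37 at 0 hr) and the Y-linked Ddx3y higher (2.45 and 2.2) in KO than in WT at both times. Every WT library held RNA of both genes. Xist was at 75.4 to 83.7 CPM in WT 48 hr and 218 to 293 CPM in WT 0 hr. Ddx3y was at 20.8 to 21.8 CPM in WT 48 hr and 23.5 to 28.3 CPM in WT 0 hr. The sex of the animals is not given in the sources used here. Sex-linked expression and genotype therefore cannot be told apart in any comparison of KO with WT. Replicates 12 (KO 48 hr) and 6 (KO 0 hr) were closer to WT on the second principal component than the remaining KO libraries, and results are given without them where their removal changed a call.

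Tcf3 had the highest level of the 9 genes for its length in all 4 groups (CPM per kilobase of the longest coding transcript in GENCODE M21). It averaged 83.8 ± 4.95 in KO 48 hr, 91.0 ± 7.35 in WT 48 hr, 107 ± 22.0 in KO 0 hr and 103 ± 8.04 in WT 0 hr (SD, n = 3 each). Ikzf3, Ikzf1 and Id3 formed the next tier in every group, at 34.5 to 64.6 on the same scale, and neighbours in that tier overlapped between libraries in KO 48 hr (Ikzf1 and Id3), WT 48 hr (Ikzf3 and Ikzf1) and KO 0 hr (all 3). Tcf4 followed at 16.7 to 24.6, Id2 at 8.52 to 13.4 and Tcf12 at 6.58 to 11.5. Tcf12 ranked above Id2 at 48 hr and below it at 0 hr, and in KO 48 hr the libraries of the pair overlapped. Id1 and Ikzf2 were at the bottom, at 0.0197 to 0.209.

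**Figure D1:**
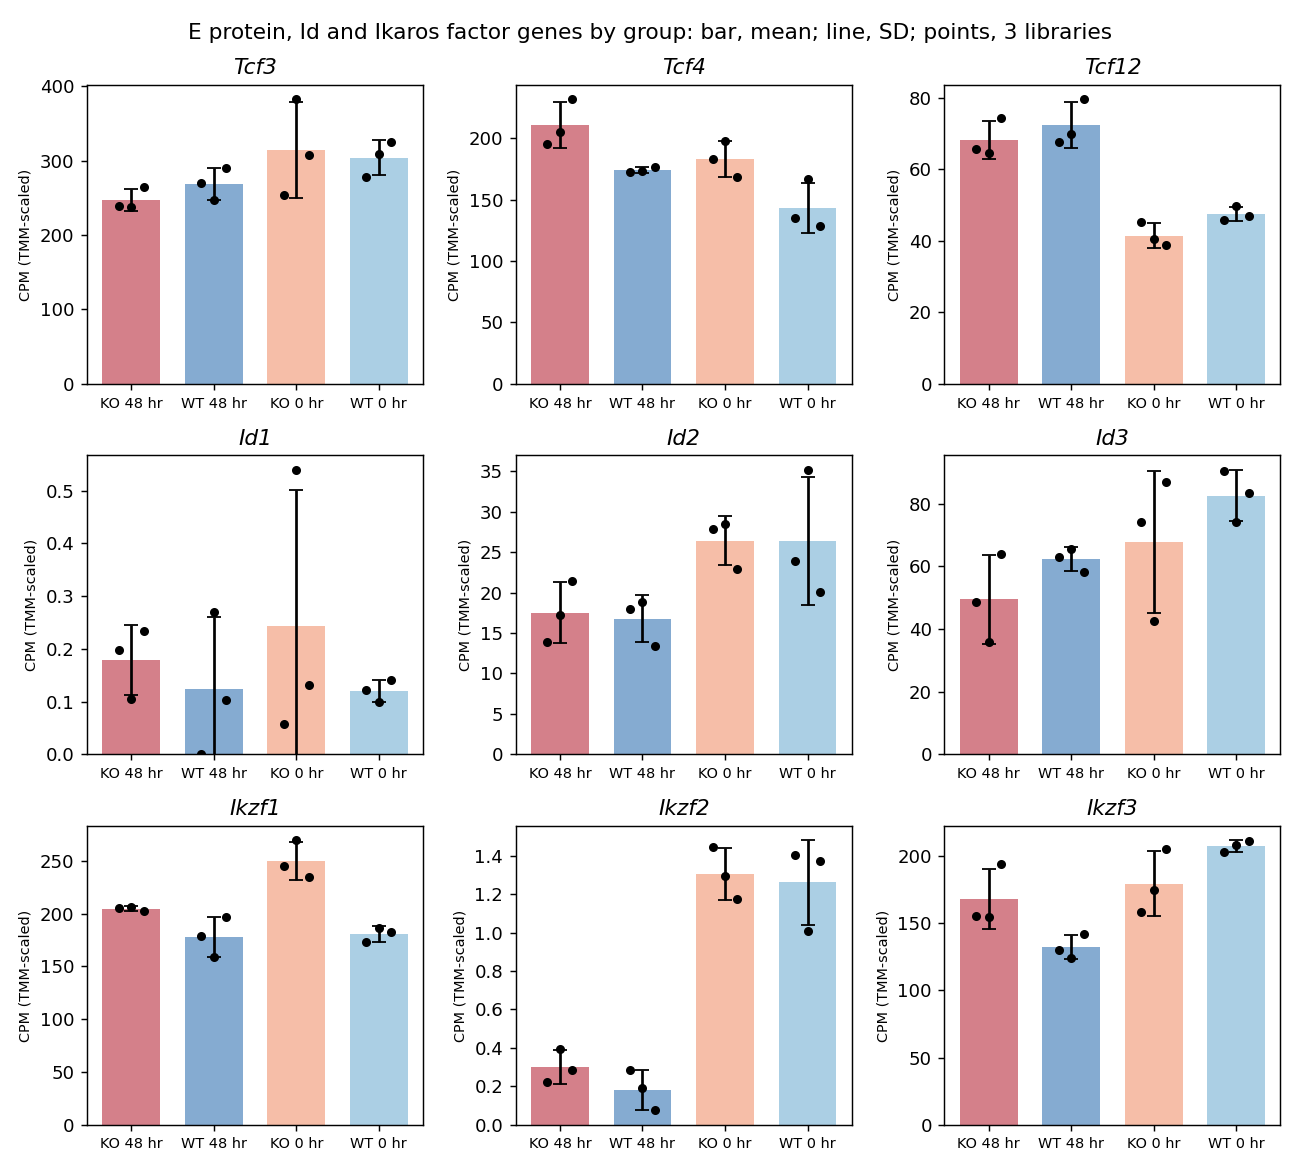
Level of each of the 9 genes in CPM, by group. Bars are means of 3 libraries, lines are SD and points are libraries. Tcf12 is higher and Id2 and Ikzf2 are lower at 48 hr than at 0 hr in both genotypes, and Ikzf1 is higher in KO than in WT at 0 hr.

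Stimulation was compared first, as 48 hr against 0 hr within each genotype. In WT cells 5 of the 8 tested members changed by edgeR's quasi-likelihood test at an adjusted p below 0.05, against 73.9% of all genes tested (33% higher and 40.9% lower). On the scaled levels Tcf4 and Tcf12 rose, and Id2, Ikzf2 and Ikzf3 fell. In KO cells 5 of 8 changed as well, against 70.7% of all genes (33% higher and 37.7% lower), with Tcf12 higher and Tcf3, Id2, Ikzf1 and Ikzf2 lower. With a minimum of 1 CPM in 3 libraries as the filter, 7 of 8 members were called in KO and 6 of 8 in WT, where 11954 and 12236 of 15137 genes were called, so the members' counts were near the shares of all genes. The 3 libraries of each time did not overlap for 6 of 8 members in WT and 4 of 8 in KO, where 79.8% and 72.5% of all genes did not. The median log2 fold change over all 19125 genes was -0.39 in WT and -0.30 in KO. Scaling by relative log expression in place of the trimmed mean moved these to -0.29 and -0.26. The filter at 1 CPM moved them to -0.17 and -0.18, and the absence of a low-count filter to -0.71 and -0.53. Over the members the median was -0.29 in WT and -0.32 in KO.

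Tcf12 (chromosome 9, 71842688 to 72111871 in mm10), which encodes the E protein HEB, was the member that rose furthest on the scaled levels. It was at 65.7, 64.5 and 74.4 CPM in KO 48 hr against 45.3, 40.4 and 38.7 CPM in KO 0 hr, and at 67.5, 69.8 and 79.6 CPM in WT 48 hr against 45.8, 49.7 and 46.8 CPM in WT 0 hr. On these scaled levels every 48 hr library was above every 0 hr library. The log2 fold change was 0.72 in KO (SE 0.11, edgeR adjusted p = 4.66e-05) and 0.61 in WT (SE 0.11, adjusted p = 0.000191), or 1.02 and 1.00 above the median gene. Both calls held under all 19 alternatives tried.

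Tcf4 (chromosome 18, 69343356 to 69689079), the E protein gene that plasmacytoid dendritic cells depend on, was at 172, 173 and 177 CPM in WT 48 hr against 135, 167 and 128 CPM in WT 0 hr. Those groups did not overlap, and the log2 fold change of 0.28 (SE 0.12) passed the edgeR test (adjusted p = 0.0408), 0.67 above the median gene. In KO cells it was at 195, 205 and 232 CPM at 48 hr against 183, 198 and 169 CPM at 0 hr, where the highest 0 hr library lay within the 48 hr range (0.20, SE 0.12, adjusted p = 0.134). The WT call was lost without replicate 1 (0.24, adjusted p = 0.12) or 3 (0.21, 0.16) of WT 0 hr, and without WT 48 hr replicate 7 (0.30, 0.078), 8 (0.29, 0.082) or 9 (0.30, 0.076). It was also lost with no low-count filter (0.056), with a minimum of 1 CPM in 3 libraries (0.13, 0.32) and in a fit of the WT libraries alone (0.25, 0.06). Tcf4 had 6695, 6406 and 6909 counts in WT 48 hr against 7673, 8431 and 7297 in WT 0 hr. Without the scaling its WT level was thus lower at 48 hr.

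Tcf3 (chromosome 10, 80409514 to 80433647) encodes the E proteins that start B lineage commitment. It was at 240, 238 and 264 CPM in KO 48 hr against 253, 383 and 307 CPM in KO 0 hr, and at 270, 246 and 290 CPM in WT 48 hr against 278, 309 and 325 CPM in WT 0 hr. The times overlapped in both genotypes. The KO difference passed the edgeR test (-0.35, SE 0.14, adjusted p = 0.0353) and the WT difference did not (-0.18, SE 0.14, adjusted p = 0.25). Relative to the median gene, the KO change was -0.05. Without KO 0 hr replicate 5, the library at 383 CPM, it was -0.18 (adjusted p = 0.21), and the call was also lost without replicate 6 of KO 0 hr (-0.36, 0.058), without replicate 10 (-0.32, 0.10) or 11 (-0.36, 0.072) of KO 48 hr, without replicates 6 and 12 together (-0.41, 0.059), and under relative log expression scaling (-0.30, 0.057). With a minimum of 1 CPM in 3 libraries the WT difference was called (-0.33, 0.043).

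Among the Id genes, Id2 (chromosome 12, 25093799 to 25097140), an inhibitor of E proteins that innate lymphocytes require, fell in both genotypes. It was at 13.8, 17.2 and 21.4 CPM in KO 48 hr against 27.9, 28.4 and 22.9 CPM in KO 0 hr, and at 18.0, 18.9 and 13.4 CPM in WT 48 hr against 23.9, 35.2 and 20.1 CPM in WT 0 hr. All 48 hr libraries were below all 0 hr libraries of their genotype, though narrowly. The log2 fold change was -0.59 in KO (SE 0.22, edgeR adjusted p = 0.0262) and -0.65 in WT (SE 0.22, adjusted p = 0.0157), or -0.29 and -0.26 relative to the median gene. The KO call was lost when replicate 4 (-0.55, adjusted p = 0.065) or 5 (-0.53, 0.07) of KO 0 hr, or 10 (-0.44, 0.12) or 11 (-0.62, 0.054) of KO 48 hr, was left out. The WT call was lost when replicate 2 of WT 0 hr (-0.38, 0.11) or 9 of WT 48 hr (-0.49, 0.092) was. Markers of other cell types moved with Id2. Of the natural killer and innate lymphoid markers 7 of 10 fell in KO, and 8 fell and 2 rose in WT. Their summed level was 28.2 to 32.3 CPM in KO 48 hr against 27.6 to 63.7 CPM in KO 0 hr and 21.0 to 26.1 CPM in WT 48 hr against 26.3 to 32.2 CPM in WT 0 hr. All 4 neutrophil, 5 erythroid and 4 platelet markers tested fell in both genotypes, as did 4 of 6 conventional and 3 of 4 plasmacytoid dendritic cell markers, of which 1 each rose. The summed conventional dendritic level did not follow that count, at 60.9 to 75.0 CPM in KO 48 hr against 47.4 to 94.7 CPM in KO 0 hr and 92.4 to 98.5 CPM in WT 48 hr against 51.8 to 77.8 CPM in WT 0 hr. The summed neutrophil level overlapped in KO, at 0.0519 to 0.66 CPM at 48 hr against 0.0441 to 45.5 CPM at 0 hr. In WT it was 0.205 to 0.515 CPM against 9.44 to 24.8 CPM. Of the monocyte and macrophage markers all 8 fell in both genotypes, where 37.7% of all genes fell in KO and 40.9% in WT. None of those 8 was at 0 in any group. Their summed level was 11.7 to 29.1 CPM in KO 48 hr against 167 to 515 CPM in KO 0 hr, and 13.2 to 15.3 CPM in WT 48 hr against 164 to 345 CPM in WT 0 hr. The part of these markers in the Id2 result was not tested, and in such bulk samples fewer cells of a type and less RNA per cell cannot be told apart.

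Id3 (chromosome 4, 136143497 to 136145755), the most abundant Id gene for its length in all 4 groups, was not called over time. It was at 48.5, 35.8 and 64.1 CPM in KO 48 hr against 74.0, 42.6 and 86.8 CPM in KO 0 hr, and at 63.0, 65.7 and 58.3 CPM in WT 48 hr against 90.5, 74.1 and 83.3 CPM in WT 0 hr. The KO groups overlapped, and the WT groups did not. The log2 fold changes were -0.46 (SE 0.23, edgeR adjusted p = 0.0919) in KO and -0.41 (SE 0.23, adjusted p = 0.124) in WT. A call was gained in KO without KO 0 hr replicate 5 (-0.70, 0.0053) or KO 48 hr replicate 12 (-0.68, 0.023), and in WT without KO 0 hr replicate 5 (-0.40, 0.048) or in a fit of the WT libraries alone (-0.44, 0.0026). With a minimum of 1 CPM in 3 libraries both genotypes were called (-0.63, 0.021 and -0.56, 0.036). Id1 (chromosome 2, 152736251 to 152737410) had 8, 4 and 9 estimated counts in KO 48 hr, 0, 10 and 4 in WT 48 hr, 3, 35 and 9 in KO 0 hr and 7, 5 and 8 in WT 0 hr. No difference in Id1 was detectable at this depth.

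Of the Ikaros factors, Ikzf2 (chromosome 1, 69531214 to 69687245), which encodes Helios, was low at 0 hr and lower still at 48 hr. It was at 0.222, 0.396 and 0.285 CPM in KO 48 hr against 1.44, 1.29 and 1.18 CPM in KO 0 hr, and at 0.283, 0.189 and 0.0768 CPM in WT 48 hr against 1.40, 1.01 and 1.37 CPM in WT 0 hr. The lowest 0 hr library exceeded the highest 48 hr library in both genotypes. The log2 fold change was -2.11 in KO (SE 0.40, edgeR adjusted p = 0.00033) and -2.77 in WT (SE 0.42, adjusted p = 4.79e-05), and both calls held under all 19 alternatives. Helios is best known in regulatory T cells, and T cell markers moved with it: 9 of 12 fell in both genotypes, beside 37.7% of all genes in KO and 40.9% in WT, with summed levels of 46.8 to 117 CPM in KO 48 hr against 65.6 to 137 CPM in KO 0 hr, and 40.3 to 44.8 CPM in WT 48 hr against 66.0 to 73.3 CPM in WT 0 hr. Lck, which was not called over time, made up most of those sums. It averaged 86.4 CPM in KO 48 hr against 73.3 CPM in KO 0 hr, and 36.6 CPM in WT 48 hr against 43 CPM in WT 0 hr. No T cell marker was at 0 in a group, and the part of these markers in the Ikzf2 result was not tested.

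Ikzf3 (chromosome 11, 98464902 to 98546031), which encodes Aiolos, the Ikaros factor prominent in mature B cells, was at 130, 124 and 142 CPM in WT 48 hr against 203, 208 and 211 CPM in WT 0 hr. The WT groups stood well apart, and the fall passed the edgeR test (-0.65, SE 0.12, adjusted p = 0.00028) and held under all 19 alternatives. In KO cells Ikzf3 was at 155, 155 and 194 CPM at 48 hr against 158, 175 and 205 CPM at 0 hr, where the times overlapped (-0.10, SE 0.12, adjusted p = 0.487, and -0.28 to 0.02 over the alternatives). The filter at 1 CPM called it lower in KO as well (-0.28, edgeR adjusted p = 0.042). The difference between the genotypes' changes was 0.55 (SE 0.17, 95% interval 0.19 to 0.92). It had an unadjusted p of 0.0059 and an edgeR adjusted p of 0.333, so the genotypes were not shown to differ in the Ikzf3 response. Over its 18 alternatives that difference ranged from 0.44 to 0.66, with adjusted p from 0.14 to 0.61.

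Ikzf1 (chromosome 11, 11685003 to 11772926), which encodes Ikaros, was at 205, 207 and 202 CPM in KO 48 hr against 245, 269 and 235 CPM in KO 0 hr, and at 178, 159 and 197 CPM in WT 48 hr against 173, 186 and 183 CPM in WT 0 hr. The KO groups did not overlap, and the WT 0 hr libraries lay inside the WT 48 hr range. The fall in KO passed the edgeR test (-0.29, SE 0.10, adjusted p = 0.0208) but lay within 0.02 of the shift of the median gene. In WT the log2 fold change was -0.02 (SE 0.10, adjusted p = 0.862) and ran from -0.18 to 0.07 over the alternatives. The KO call was lost without replicate 5 of KO 0 hr (-0.22, adjusted p = 0.078) or 10 (-0.28, 0.059) or 12 (-0.27, 0.061) of KO 48 hr, and without replicates 6 and 12 together (-0.31, 0.05).

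**Figure D2:**
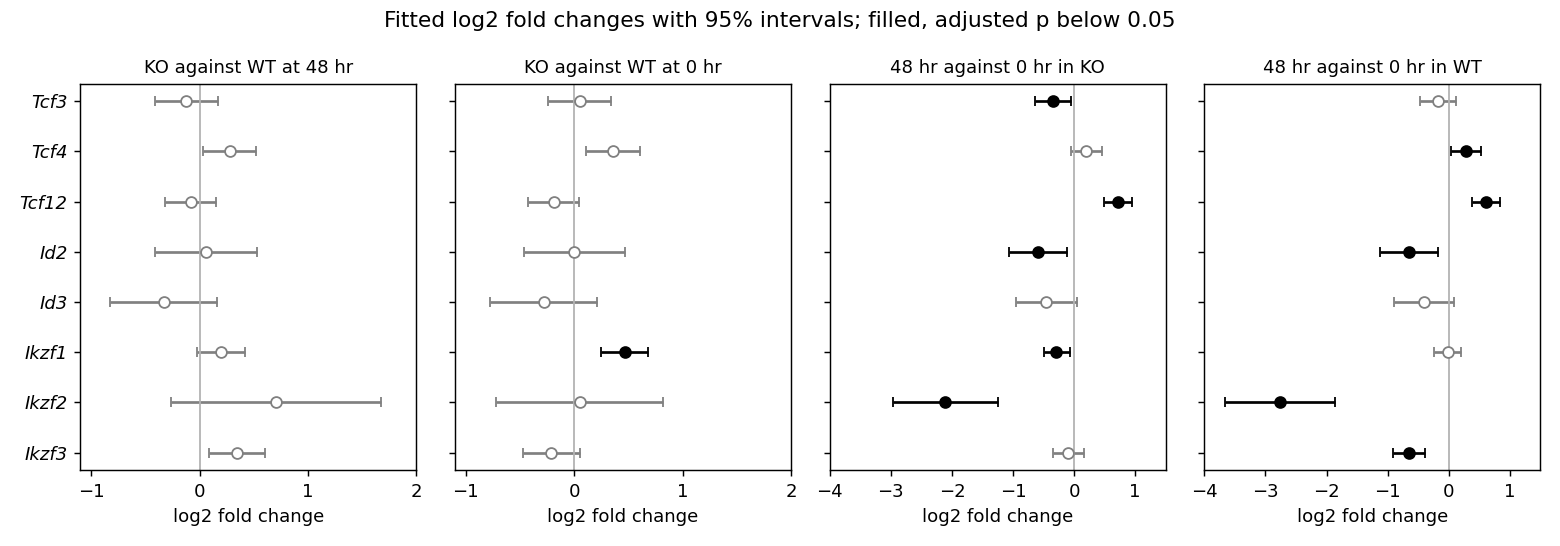
Fitted log2 fold change of each tested gene with its 95% interval in the 4 pairwise comparisons, filled where the edgeR adjusted p was below 0.05. Tcf12 lies at 0.72 and 0.61 over time in KO and WT, and Ikzf1 at 0.47 is the single filled point between genotypes.

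Next, KO was compared with WT at each time. At 48 hr 0 of 8 members passed the edgeR test, against 2.02% of all genes (1.47% higher and 0.544% lower). DESeq2 and limma-voom each called 0 there, and 2 members had p below 0.05 before adjustment. At 0 hr 1 of 8 passed, against 1.11% of all genes (0.68% higher and 0.429% lower), and DESeq2 and limma-voom also called 1. No member was called for a difference between genotypes in its response to stimulation (0 of 8 called by edgeR, DESeq2 or limma-voom, and 1 with p below 0.05 before adjustment, against 0.115% of all genes, 0.068% higher and 0.0471% lower). The median member had a log2 fold change of 0.13 at 48 hr and 0.02 at 0 hr, beside 0.01 and 0 over all genes. Libraries of KO and WT did not overlap for 3 of 8 members at 48 hr and 3 of 8 at 0 hr, where 20.2% and 14.9% of all genes did not overlap.

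Ikzf1 was the member called at 0 hr. The KO 0 hr libraries, at 245, 269 and 235 CPM, all lay above the WT 0 hr libraries at 173, 186 and 183 CPM, a 1.38-fold difference (log2 0.47, SE 0.10, edgeR adjusted p = 0.0412). At 48 hr the KO libraries were again all above the WT libraries, at 202 to 207 against 159 to 197 CPM, but the log2 fold change of 0.20 (SE 0.10) did not pass (adjusted p = 0.391). Set against 0 hr, the KO effect at 48 hr differed by -0.27 (SE 0.14, adjusted p = 0.655). At 0 hr the size of the difference was stable, at 0.41 to 0.51 over 19 alternatives, while its adjusted p ranged from 9.1e-05 to 0.21. The call was lost in a fit of the 0 hr libraries alone (0.47, adjusted p = 0.21). Leaving out single libraries lost it in 10 of 12 cases: replicates 1 (0.44, adjusted p = 0.20), 2 (0.49, 0.068) and 3 (0.47, 0.15) of WT 0 hr, replicates 4 (0.48, 0.069) and 5 (0.41, 0.12) of KO 0 hr, replicates 7 (0.47, 0.087), 8 (0.47, 0.053) and 9 (0.47, 0.056) of WT 48 hr, and replicates 10 (0.47, 0.08) and 11 (0.47, 0.067) of KO 48 hr, each in turn. Without KO 0 hr replicate 6 and KO 48 hr replicate 12 together it held (adjusted p = 0.034).

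Some marginal zone B cell markers were, like Ikzf1, higher in KO at 0 hr. Of 10 markers, 4 were called higher in KO at 0 hr (Cd1d1, Cd36, Cd9 and Plxnd1), against 0.68% of all genes. At 48 hr 3 were (Cd1d1, Cd36 and Cd9), against 1.47% of all genes, and none was called lower at either time. Notch2 went the other way in mean, at 141 CPM in KO 0 hr against 185 CPM in WT 0 hr. At 48 hr it was at 48.4 CPM in KO against 69.2 CPM in WT. Summed marker levels were 1970 to 2140 CPM in KO 0 hr against 1300 to 1670 CPM in WT 0 hr. They were 1360 to 1660 CPM in KO 48 hr against 1080 to 1140 CPM in WT 48 hr, with no marker at 0 in any group. The counts were 0 at 0 hr in a fit of those libraries alone, and 0 at 48 hr without WT 48 hr replicate 7. Their part in the Ikzf1 result was not tested.

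Tcf4 and Ikzf3 differed by less than the test could call, although their groups stood apart. Tcf4 was at 195, 205 and 232 CPM in KO 48 hr against 172, 173 and 177 CPM in WT 48 hr (log2 fold change 0.28, SE 0.12, edgeR adjusted p = 0.282). At 0 hr it was at 183, 198 and 169 CPM in KO against 135, 167 and 128 CPM in WT (0.36, SE 0.12, adjusted p = 0.217). Each KO library exceeded each WT library at its time. Ikzf3 was at 155, 155 and 194 CPM in KO 48 hr against 130, 124 and 142 CPM in WT 48 hr, again without overlap (0.35, SE 0.12, adjusted p = 0.18), whereas at 0 hr the groups overlapped (-0.21, SE 0.12, adjusted p = 0.609). For Tcf12 the KO 0 hr libraries, at 45.3, 40.4 and 38.7 CPM, were all below the WT 0 hr libraries at 45.8, 49.7 and 46.8 CPM (-0.19, SE 0.11, adjusted p = 0.587). The 95% intervals of Tcf3, Id2 and Id3 between genotypes lay within -0.83 and 0.53 at both times. That of Ikzf2 reached from -0.26 to 1.67 at 48 hr, so its difference was only loosely bounded at its low counts.

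Summed over each family per kilobase, the E protein level was 114, 115 and 128 in KO 48 hr, 122, 115 and 131 in WT 48 hr, 114, 159 and 130 in KO 0 hr and 117, 132 and 132 in WT 0 hr. All 4 groups overlapped. The Id level was 45.2, 36.8 and 61.2 in KO 48 hr, 58.5, 61.2 and 52.5 in WT 48 hr, 72.1, 48.2 and 79.7 in KO 0 hr and 83.1, 75.9 and 75.5 in WT 0 hr, which set 48 hr below 0 hr in WT and not in KO. The ratio of Id to E protein RNA averaged 0.397 ± 0.0782 in KO 48 hr, 0.470 ± 0.0672 in WT 48 hr, 0.516 ± 0.184 in KO 0 hr and 0.618 ± 0.0787 in WT 0 hr (SD, n = 3 each), and KO overlapped WT at both times. KO 0 hr replicate 5 had the lowest ratio of all 12 libraries, at 0.303, with the highest Tcf3 and the lowest Id3 of the 0 hr libraries. The Ikaros level was 82.2, 82.3 and 92.2 in KO 48 hr, above 70.1, 64.8 and 77.0 in WT 48 hr, and 90.8, 100 and 102 in KO 0 hr, which overlapped 89.0, 93.1 and 93.3 in WT 0 hr.

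**Figure D3:**
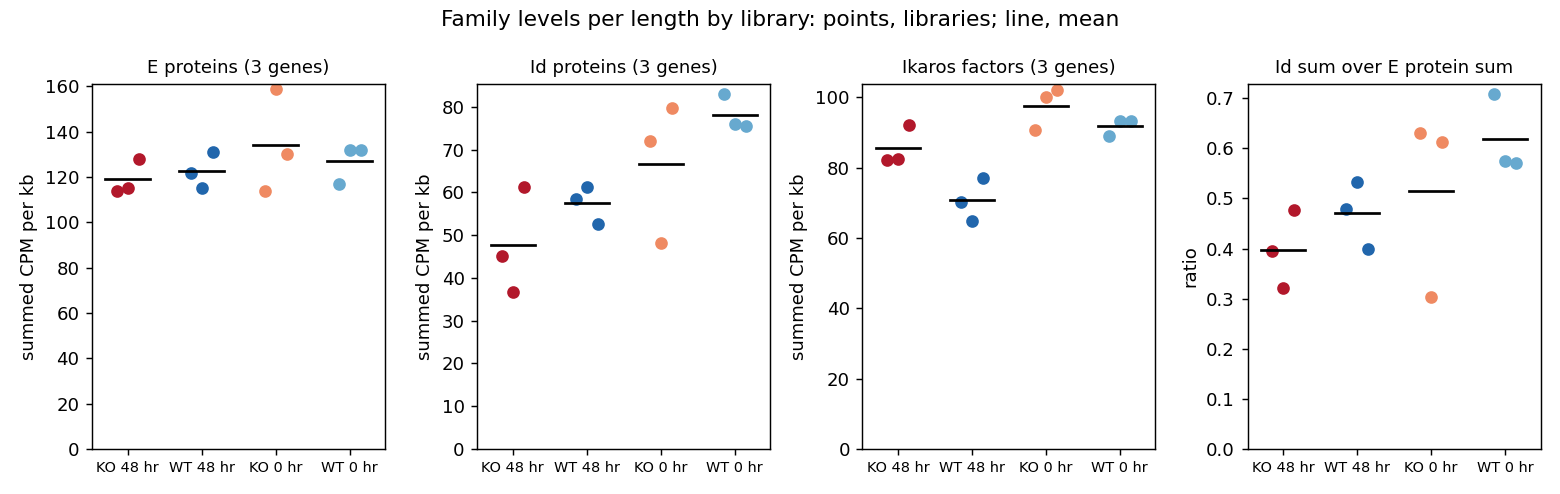
Summed level of the 3 E protein, 3 Id and 3 Ikaros factor genes in CPM per kilobase, and the ratio of the Id to the E protein sum, by library, with a line at each group mean. The Id sum is 52.5 to 61.2 in WT 48 hr against 75.5 to 83.1 in WT 0 hr, and the Ikaros sum at 48 hr is higher in all 3 KO libraries than in the WT libraries.

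Several members are known to make different proteins from different transcripts, so the estimated counts of single transcripts were tested too. Between genotypes 0 of 38 member transcripts passed at 48 hr and 0 of 38 at 0 hr by edgeR, against 0.341% of all transcripts tested at 48 hr (0.202% higher and 0.139% lower) and 0.227% at 0 hr (0.126% higher and 0.101% lower), and DESeq2 called 2 at each time and limma-voom 0. Over time 13 of 38 passed in KO (5 higher, 8 lower) and 17 of 38 in WT (6 higher, 11 lower), against 49.8% of all transcripts in KO (23.8% higher and 26% lower) and 52.5% in WT (24.7% higher and 27.8% lower). By edgeR 0 of 38 were called for a difference between genotypes in the change over time, against 0.00819% of all transcripts, 0.00273% higher and 0.00546% lower (DESeq2 called 1 and limma-voom 0). Shares below are of a gene's estimated count, which Salmon divides among overlapping transcripts. They are not per length, and the files do not pair these identifiers with the named Ikaros or E protein isoforms.

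The count of Ikzf1 was divided differently among its transcripts at the 2 times. Its variant 1 transcript uc007iak.2 held 43.2% ± 4.69 of the gene's count in KO 48 hr against 76.7% ± 1.54 in KO 0 hr, and 38.5% ± 9.34 in WT 48 hr against 72.3% ± 5.71 in WT 0 hr (SD, n = 3 each). Its level fell in both genotypes (log2 fold change -1.11, SE 0.20, edgeR adjusted p = 0.00105 in KO, and -0.88, SE 0.20, adjusted p = 0.00412 in WT). The variant 2 transcript uc007ial.2 had 880, 701 and 872 counts in KO 48 hr and 1457, 1045 and 1047 in WT 48 hr, against 0 counts in all 6 libraries at 0 hr. Set against a floor of 3 counts over a group, it was at least 1300-fold higher at 48 hr in KO and at least 1690-fold higher in WT, and both passed (edgeR adjusted p = 6.67e-07 and 5.08e-07). The other variant 2 transcript, uc007iaj.2, fell in both (-3.30, adjusted p = 0.0011 in KO, and -2.72, 0.00298 in WT). Both variant 2 transcripts together held 11.1% in KO 48 hr against 7.08% in KO 0 hr, and 18.8% in WT 48 hr against 9.18% in WT 0 hr. Variant 2 as a whole thus changed far less than uc007ial.2 alone. The variant 3 transcript uc007iap.1 had 1731, 1228 and 1970 counts in KO 48 hr and 1552, 1524 and 1028 in WT 48 hr, against 0, 561 and 0 in KO 0 hr and 0, 1 and 0 in WT 0 hr. The change passed in WT (edgeR adjusted p = 0.00273). In KO it did not (adjusted p = 0.054), and there KO 0 hr replicate 5 held all of the counts at 0 hr, without which the adjusted p was 1.4e-06. A second variant 3 transcript, uc007ian.1, fell in both genotypes (-0.90, adjusted p = 0.00845 in KO, and -1.05, adjusted p = 0.00337 in WT). Variant 3 as a whole held 26.5% in KO 48 hr against 10.3% in KO 0 hr, and 25.8% in WT 48 hr against 11.2% in WT 0 hr. While these transcripts exchanged shares, the scaled level of Ikzf1 in WT moved by -0.02 on the log2 scale. Its summed count was 20506 in WT 48 hr against 29666 in WT 0 hr, so that small change depends on the scaling.

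Tcf12 and Tcf4 were also divided differently among transcripts. In Tcf12 the variant 1 transcript uc009qpf.2 held 58.2% ± 7.92 in KO 48 hr against 29.0% ± 0.589 in KO 0 hr, and 61.2% ± 3.11 in WT 48 hr against 36.7% ± 5.22 in WT 0 hr. It rose by 1.74 on the log2 scale in KO (SE 0.18, edgeR adjusted p = 1.97e-05) and by 1.38 in WT (SE 0.18, adjusted p = 9.46e-05). The second variant 1 transcript, uc009qpk.2, fell (-0.98, adjusted p = 0.00798 in KO, and -1.05, 0.00515 in WT). Variant 1 as a whole held 62.1% in KO 48 hr against 41.7% in KO 0 hr, and 65.6% in WT 48 hr against 51.0% in WT 0 hr. The variant 2 transcript uc009qpi.2 was at 19.0 to 23.1 CPM in group mean and did not pass (0.14 in KO and 0.28 in WT, adjusted p = 0.442 and 0.132). In Tcf4 the variant 2 transcript uc008fnu.1 held 38.0% ± 1.47 in KO 48 hr against 20.1% ± 6.61 in KO 0 hr, and 39.3% ± 3.52 in WT 48 hr against 23.5% ± 3.61 in WT 0 hr, and it rose in both (1.16, adjusted p = 0.00195 in KO, and 1.04, adjusted p = 0.00343 in WT). Other variant 2 transcripts held less at 48 hr, among them uc008fns.1 with 2.26% in KO 48 hr against 11.7% in KO 0 hr, and 1.97 CPM in WT 48 hr against 13.5 CPM in WT 0 hr in group mean, neither of which passed (adjusted p = 0.127 in KO and 0.0757 in WT). All 4 variant 2 transcripts together held 43.3% in KO 48 hr against 38.9% in KO 0 hr, and 43.3% in WT 48 hr against 39.9% in WT 0 hr. The variant thus shifted far less than uc008fnu.1. The most abundant Tcf4 transcript, uc008fnv.1, kept 56.1% to 58.6% in all group means. Its KO against WT difference at 0 hr (0.40, SE 0.12, edgeR adjusted p = 0.323) was called by DESeq2 (adjusted p = 0.031).

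In Tcf3, 5 transcripts held at least 10% of the count in a group. The variant 5 transcript uc007gdj.2 was largest, at 31.2% ± 5.78 in KO 48 hr, 31.5% ± 5.41 in WT 48 hr, 28.6% ± 1.49 in KO 0 hr and 29.6% ± 1.97 in WT 0 hr. The others were variant 8 (uc007gdg.2), with 20.7% to 27.1% in group mean, variant 1 (uc007gdh.2), with 6.61% to 11.4%, and variant 4 (uc007gdk.2), with 8.86% to 12.3%. Of the Tcf3 transcripts, variant 3 (uc007gdi.2) alone passed over time by edgeR. It fell in KO (-1.22, SE 0.25, edgeR adjusted p = 0.002) and had a log2 fold change of -0.26 in WT (adjusted p = 0.395). In Ikzf3, uc007lgm.1 held 80.3% to 90.4% in all group means and fell in WT (-0.44, adjusted p = 0.00783), with 0.02 in KO (adjusted p = 0.895). The smaller uc007lgl.1, at 7.79% to 10.2%, had -0.34 in KO (adjusted p = 0.12) and fell in WT, to a mean of 10.3 CPM at 48 hr against 21.1 CPM at 0 hr (adjusted p = 0.000692). The remaining Ikzf3 transcript, uc007lgn.1, held 1.80% to 9.53% in group mean. It fell in both genotypes (-2.06, edgeR adjusted p = 4.43e-05 in KO, and -3.02, 2.79e-06 in WT). The Ikzf2 transcript uc029qoy.1 fell in both genotypes (-3.95 in KO and -3.92 in WT, adjusted p = 0.013 and 0.0129), and uc007bjd.2 fell in WT (-2.32, 0.0128) and missed the threshold in KO (-1.64, 0.0524). Id1, Id2 and Id3 had 1 transcript each.

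**Figure D4:**
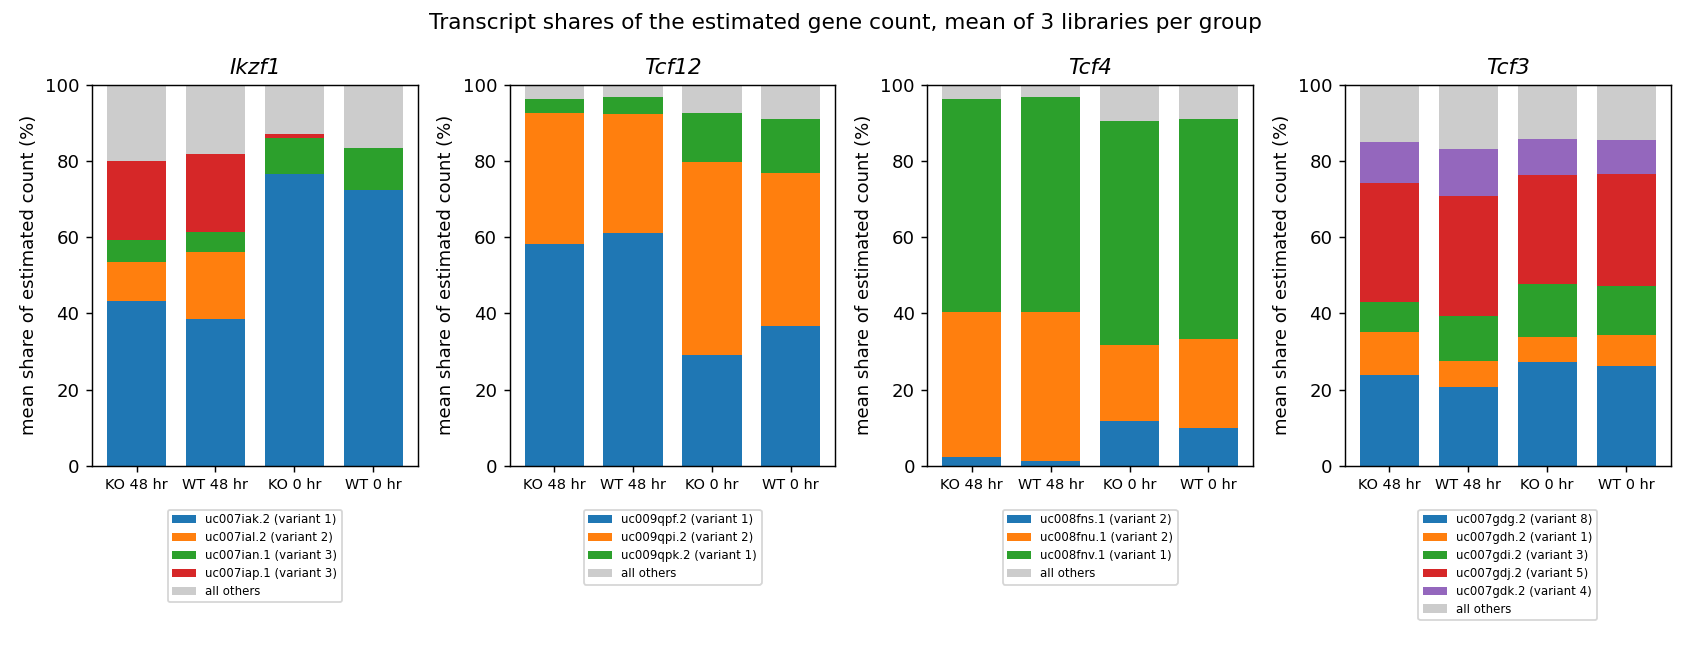
Mean share of the estimated count of Ikzf1, Tcf12, Tcf4 and Tcf3 held by each transcript with at least 10% in a group, by group (3 libraries each). The Ikzf1 transcripts uc007ial.2 and uc007iap.1 make up 10.2% and 20.6% in KO 48 hr and 17.5% and 20.6% in WT 48 hr, and 1.07% or less at 0 hr.

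Because the transcripts of Ikzf1 and Tcf12 exchanged shares with stimulation and RefSeq gives these genes more than 1 start, the DNA before their starts was examined, together with that of Id2, the Id gene that fell. The set of RefSeq promoters used here (GRCm38.p6) held 5 of the 9 members, and absence from it does not mean that RefSeq lacks a start. Each sequence below is the gene's strand, 5′ to 3′, from 250 bases before a RefSeq start, ending where an annotated GENCODE exon or the start begins. Capitals mark E-boxes (CANNTG, a palindromic pattern searched on both strands, which includes the E protein form below).
Ikzf1, upstream start, chr11:11685675-11685924 (plus strand): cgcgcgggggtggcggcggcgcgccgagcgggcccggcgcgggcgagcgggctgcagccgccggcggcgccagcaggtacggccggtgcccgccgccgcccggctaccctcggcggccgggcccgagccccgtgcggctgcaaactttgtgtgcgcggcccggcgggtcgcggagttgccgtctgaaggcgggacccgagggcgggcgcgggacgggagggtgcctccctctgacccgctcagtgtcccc
Ikzf1, downstream start, chr11:11689927-11690176 (plus strand): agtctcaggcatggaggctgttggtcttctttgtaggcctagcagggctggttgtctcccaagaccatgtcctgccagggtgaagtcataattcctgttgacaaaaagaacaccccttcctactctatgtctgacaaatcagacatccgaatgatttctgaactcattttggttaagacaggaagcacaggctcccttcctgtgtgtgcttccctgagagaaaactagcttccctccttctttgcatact
Tcf12, upstream start, chr9:72111872-72112069 (minus strand): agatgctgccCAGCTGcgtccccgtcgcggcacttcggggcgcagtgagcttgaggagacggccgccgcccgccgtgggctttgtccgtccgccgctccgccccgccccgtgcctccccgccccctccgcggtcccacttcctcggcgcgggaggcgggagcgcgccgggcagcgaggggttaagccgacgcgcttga
Tcf12, next start, chr9:72111203-72111451 (minus strand): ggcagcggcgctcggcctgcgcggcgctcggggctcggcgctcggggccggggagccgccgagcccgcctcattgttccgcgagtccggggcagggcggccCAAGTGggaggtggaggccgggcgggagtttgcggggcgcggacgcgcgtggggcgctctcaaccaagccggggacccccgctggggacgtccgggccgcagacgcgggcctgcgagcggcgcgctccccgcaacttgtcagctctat
Id2, chr12:25096254-25096342 (minus strand): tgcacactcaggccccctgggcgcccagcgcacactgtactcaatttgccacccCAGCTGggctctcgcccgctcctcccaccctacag
The Ikzf1 windows of 250 bases held 0 E-boxes before either start, whereas the printed Tcf12 and Id2 stretches held 1 each. Of all 32851 RefSeq windows of 250 bases, 66.2% held an E-box. The form preferred by E proteins (CAGGTG or its complement CACCTG, present in 17.2% of all windows) and an Ikaros core (TGGGAA or its complement TTCCCA, in 21.6%) were in 0 of the 5 printed stretches. Those shares are for full windows and do not apply to the shorter Tcf12 and Id2 stretches. A match is a description of letters only, and which start each UCSC transcript uses is not given in the sources used here.

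Genes around the 3 families were counted from 9 lists, which were chosen with earlier results of these data known. Their counts are therefore descriptions and no test of a list. For genes downstream of E proteins in activated B and plasma cells, 4 of 8 were higher in KO at 48 hr, against 1.47% of all genes higher, with a list median of 0.75 beside 0.01 over all genes, and 0 of 8 passed at 0 hr (3 with p below 0.05 before adjustment, none called by DESeq2 or limma-voom, 1 without KO 0 hr replicate 6, median -0.18). The 4 were Prdm1, Cdkn1a, Mef2b and Cxcr4. Prdm1, which encodes the plasma cell repressor BLIMP-1, was at 33.5, 31.0 and 59.5 CPM in KO 48 hr against 11.1, 11.1 and 14.9 CPM in WT 48 hr (log2 fold change 1.74, SE 0.27, edgeR adjusted p = 0.00485). Cdkn1a, a cell cycle inhibitor gene, was at 12.8, 6.70 and 10.6 CPM against 3.91, 3.73 and 2.79 CPM (1.53, SE 0.28, adjusted p = 0.0138). In both genes the lowest KO library was well above the highest WT library.

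Mef2b, a germinal centre transcription factor gene, was at 89.8, 90.5 and 62.3 CPM in KO 48 hr against 45.0, 38.7 and 40.9 CPM in WT 48 hr (0.96, SE 0.15, edgeR adjusted p = 0.00391), and at 14.5, 16.7 and 16.7 CPM in KO 0 hr against 20.3, 18.4 and 21.8 CPM in WT 0 hr (-0.33, SE 0.15, adjusted p = 0.417). The groups stood apart in opposite directions at the 2 times, and the difference between the 48 hr and 0 hr effects passed (1.30, SE 0.21, adjusted p = 0.0291), the single call among the list's 8, against 0.115% of all genes. That call was lost with limma-voom (1.27, 0.06) and when any of replicates 7 (1.31, 0.11), 8 (1.20, 0.15) and 9 (1.22, 0.15) of WT 48 hr, 10 (1.21, 0.12) and 11 (1.15, 0.15) of KO 48 hr, 1 (1.29, 0.14) and 3 (1.24, 0.10) of WT 0 hr, and 4 (1.23, 0.06) of KO 0 hr was left out. Cxcr4, the chemokine receptor that guides plasma cells to bone marrow, was at 6.45, 7.15 and 6.51 CPM in KO 48 hr against 3.94, 4.83 and 3.28 CPM in WT 48 hr (0.74, SE 0.18, adjusted p = 0.0493). Irf4, a plasma cell factor gene, was at 125, 121 and 164 CPM against 73.7, 77.2 and 91.6 CPM and did not pass (0.76, SE 0.21, adjusted p = 0.0945). Plasma cell markers, which include Prdm1, Irf4 and Xbp1, were counted too. At 48 hr 3 of 7 were higher in KO (Derl3, Prdm1 and Sdc1), against 1.47% of all genes. Their summed levels were 790 to 1010 CPM in KO 48 hr against 664 to 676 CPM in WT 48 hr. At 0 hr 1 of 7 was higher in KO (Sdc1), against 0.68% of all genes. The sums then were 559 to 896 CPM in KO 0 hr against 418 to 561 CPM in WT 0 hr. The part of these markers in the list's result was not tested.

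The count of 4 fell to 1 without WT 48 hr replicate 7, to 2 when replicate 8 or 9 of WT 48 hr or 10 of KO 48 hr was left out, and was 3 to 5 in the other alternatives. Mef2b at 48 hr was called in all 19, Prdm1 in all but the fit without WT 48 hr replicate 7 (1.63, adjusted p = 0.051), and Cxcr4 in 6 of 19, with adjusted p from 0.013 to 0.24. Cxcr4 was lost when any 1 of the 6 WT libraries, replicate 10 or 11 of KO 48 hr, or 4 of KO 0 hr was left out (log2 fold changes 0.55 to 0.86). It was also lost with limma-voom, relative log expression scaling, the filter at 1 CPM and a fit of the 48 hr libraries alone. Cdkn1a was lost when replicate 7 (1.57, 0.062), 8 (1.54, 0.067) or 9 (1.33, 0.09) of WT 48 hr, or 10 of KO 48 hr (1.31, 0.073), was left out. Over time 6 of the 8 rose and 2 fell in KO, and 5 rose and 2 fell in WT, where of all genes 33% rose and 37.7% fell in KO, and 33% rose and 40.9% fell in WT. The list medians were 1.96 and 0.85, beside -0.30 and -0.39 over all genes. Prdm1 rose by 3.01 on the log2 scale in KO (edgeR adjusted p = 5.07e-07), and Xbp1, which drives the secretory programme of plasma cells, rose by 1.90 in WT (8.04e-09). Cxcr4 fell by 3.00 in KO and 3.86 in WT (adjusted p = 3.41e-09 and 4.64e-10), and Bach2, a repressor of plasma cell entry, fell by 0.41 and 0.79 (0.00894 and 6.83e-05).

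**Figure D5:**
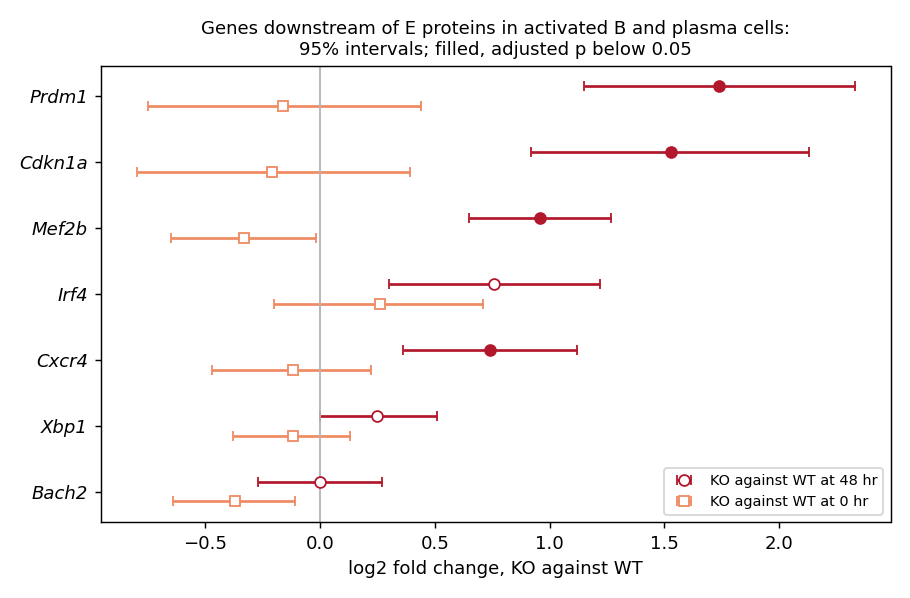
Log2 fold change of KO against WT with its 95% interval for 7 genes downstream of E proteins in activated B and plasma cells, at 48 hr (circles) and 0 hr (squares), filled where the edgeR adjusted p was below 0.05. Prdm1 (1.74), Cdkn1a (1.53), Mef2b (0.96) and Cxcr4 (0.74) are filled at 48 hr and no gene is filled at 0 hr.

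Early B cell genes that E proteins activate showed 0 calls between genotypes among 12 tested (3 with p below 0.05 before adjustment at 48 hr and 2 at 0 hr, and 0 to 2 called at 48 hr and 0 to 1 at 0 hr over the alternatives). Over time 7 of 12 fell and 1 rose in KO, and 8 fell and 1 rose in WT, with medians of -1.35 and -1.52 beside -0.30 and -0.39 over all genes, of which 37.7% fell and 33% rose in KO and 40.9% fell and 33% rose in WT. Vpreb3, a surrogate light chain associated gene, fell by 2.24 and 2.19 (edgeR adjusted p = 2.74e-07 and 3.2e-07), Ebf1 fell by 1.80 in WT (1.35e-08), and Pax5, which fixes B cell identity, fell by 1.61 in KO (1.48e-06). Pou2af1, an octamer coactivator gene, rose by 1.23 in KO and 0.40 in WT (2.51e-07 and 0.00469). E protein cofactors likewise had 0 of 10 called between genotypes (3 and 2 with p below 0.05 before adjustment at 48 hr and 0 hr, and 0 to 2 and 0 to 1 called over the alternatives). Over time 2 of the 10 cofactors rose and 7 fell in KO, and 2 rose and 5 fell in WT, with medians of -0.51 and -0.53 beside -0.30 and -0.39 over all genes, of which 33% rose and 37.7% fell in KO and 33% rose and 40.9% fell in WT. The acetyltransferase gene Kat2a rose by 1.05 and 1.02 and the coactivator gene Ep300 fell by 1.19 and 1.24 in KO and WT (adjusted p = 8.04e-06, 1.05e-05, 1.7e-07 and 1.08e-07). Lmo2, a bridging factor of E protein complexes, rose by 0.74 and 1.15 (2.58e-05 and 2.96e-07), and the corepressor gene Cbfa2t3 fell by 1.85 and 1.36 (4.97e-07 and 1e-05).

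Other helix-loop-helix genes had 0 of 7 tested called between genotypes at either time (1 with p below 0.05 before adjustment at each, and 0 at 48 hr and 0 to 1 at 0 hr over the alternatives). Over time 1 of the 7 rose and 4 fell in KO, and 2 rose and 2 fell in WT, where 33% of all genes rose in each and 37.7% and 40.9% fell, so the WT counts were near those of all genes. The list medians were -0.82 in KO and -0.37 in WT, beside -0.30 and -0.39. Bhlha15, a secretory cell factor gene, rose by 2.23 in KO and 1.91 in WT (edgeR adjusted p = 0.000198 and 0.000711), and the Notch target repressor Hes1 fell by 6.18 and 5.97 (3.8e-09 and 6.71e-09). Bhlhe40 rose by 0.88 in WT (0.00206) and Lyl1 fell by 0.82 in KO (0.00086). Among 14 genes upstream of Id genes, Egr1, the immediate early factor that induces Id3 downstream of antigen receptors, was higher in KO at 48 hr, the single call. It was at 19.0, 22.1 and 22.1 CPM in KO 48 hr against 12.3, 11.7 and 12.6 CPM in WT 48 hr (0.79, SE 0.17, adjusted p = 0.0323), and the call was kept in 11 of 19 alternatives, with log2 fold changes of 0.70 to 0.86 and adjusted p from 0.0026 to 0.19. It was lost when any 1 of the WT 48 hr libraries, replicate 10 or 11 of KO 48 hr, or 1 or 3 of WT 0 hr was left out, and with limma-voom. At 0 hr 0 of 14 passed (3 with p below 0.05 before adjustment, and 0 under every alternative). Over time 1 of the 14 rose and 7 fell in KO, and 1 rose and 8 fell in WT, with list medians of -0.92 and -0.69 beside -0.30 and -0.39 over all genes, of which 33% rose in each and 37.7% and 40.9% fell. Egr2 rose by 1.75 in KO and 1.53 in WT (edgeR adjusted p = 0.000658 and 0.00168), and Egr3 fell by 1.75 and 2.24 (7.23e-05 and 7.73e-06). Smad7, an inhibitor of the TGF-beta pathway, fell by 1.43 in KO (4.85e-06), and its receptor gene Tgfbr2 fell by 1.58 in WT (1.15e-05).

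Of 17 corepressor partners of Ikaros, Chd4 itself was lower in KO at 48 hr (-0.96, SE 0.22, edgeR adjusted p = 0.0383), the single call, and 0 passed at 0 hr (1 with p below 0.05 before adjustment, and 0 under every alternative). The Chd4 call held in 11 of 19 alternatives (log2 fold changes -1.25 to -0.81, adjusted p from 0.00055 to 0.16) and was lost with any 1 of the WT 48 hr libraries, replicate 10 or 11 of KO 48 hr, or 1 or 3 of WT 0 hr left out, and with no low-count filter. Over time 11 rose and 4 fell in KO and 10 rose and 2 fell in WT, with medians of 0.76 and 0.90 beside -0.30 and -0.39 over all genes, of which 33% rose in each and 37.7% and 40.9% fell. The histone-binding gene Rbbp7 rose by 2.44 and 2.65 and the deacetylase gene Hdac2 by 2.11 and 2.25 in KO and WT (adjusted p = 3.25e-10, 1.73e-10, 8.92e-10 and 4.82e-10), while Mta3 fell by 0.55 in WT (0.000129) and Chd3 by 0.76 in KO (0.0293). Among genes Ikaros regulates in pre-B cells, 3 of 6 were tested. Ccnd3, the cyclin D3 gene, was at 288, 255 and 340 CPM in KO 48 hr against 424, 408 and 446 CPM in WT 48 hr (-0.53, SE 0.13, adjusted p = 0.05, just under the threshold), and the call was kept in 9 of 19 alternatives (-0.65 to -0.49, adjusted p from 0.00081 to 0.19). It was lost with any 1 of the 6 WT libraries, replicate 10 or 11 of KO 48 hr, or 4 of KO 0 hr left out and with limma-voom. In that list 0 of 3 passed at 0 hr (1 with p below 0.05 before adjustment, and 0 under every alternative). Over time Ccnd3 and Myc rose and Cdkn1b, a cell cycle inhibitor gene, fell in both genotypes (list medians 1.16 and 1.80), where 33% of all genes rose in each and 37.7% and 40.9% fell. Myc rose by 1.73 in KO and 1.80 in WT (1.57e-08 and 9.6e-09), Ccnd3 by 1.16 and 1.99 (2.61e-06 and 1.08e-08), and Cdkn1b fell by 1.75 and 1.87 (1.7e-07 and 8.55e-08).

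The 5 genes of the cereblon ubiquitin ligase, which destroys Ikaros and Aiolos proteins when bound by thalidomide-like drugs in human cells, all rose in both genotypes, where 33% of all genes rose, with medians of 1.73 in KO and 1.56 in WT. Cul4b rose by 2.25 in KO and 1.88 in WT and Rbx1 by 1.88 and 2.27 (edgeR adjusted p = 4.93e-09, 2.61e-08, 1.25e-07 and 1.82e-08), and 0 of 5 passed between genotypes at either time (0 with p below 0.05 before adjustment, and 0 under every alternative). Ikzf4 and Ikzf5, the other Ikaros family genes, had 0 of 2 called in every comparison (1 with p below 0.05 before adjustment between genotypes at each time, and 0 to 1 called over time in the alternatives). Beyond Mef2b, 0 genes of these 9 lists were called for the difference between genotypes in their response.

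The genes whose levels followed each member most closely over the 12 libraries were found by Pearson correlation of log2 CPM among 10089 genes with a mean of at least 5 CPM. All libraries of both times enter, so these values also carry the difference between 48 hr and 0 hr. Ikzf1 was most like Ahr (r = 0.934), the aryl hydrocarbon receptor gene, and Zfand5 (0.930), with 0 genes above 0.95, and Ikzf3 most like Ralgapb (0.934) and Exoc4 (0.927). Tcf3 followed Pcif1 (0.955) and Dnm2 (0.944), Tcf4 followed Pqlc3 (0.960) and Acad8 (0.933), and Id3 followed Pold4 (0.962) and Mdp1 (0.943). Id2 was most like Mrc1 (0.914), the macrophage mannose receptor gene, and Tcn2 (0.903). Tcf12 shared its pattern widely, with Ccnyl1 (0.981) and Tlr7 (0.978) first among 437 genes above 0.95. For Ikzf2 the closest were the unnamed transcripts AK158286 (0.983) and AK189470 (0.981).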

How the data were processed

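Per the labels, RNA was prepared with a SMART-Seq kit, which does not keep strand, and sequenced as paired 50-base reads. Per the submitters' processing notes, bcl2fastq 2.20.0.422, Trimmomatic 0.36, Salmon 0.8.2 and DESeq2 1.14.1 were used with build mm10. The authors deposited Salmon's estimated counts per UCSC transcript as whole numbers. Symbols were trimmed of spaces (344 names) and transcripts summed per symbol. All 12 libraries entered 1 edgeR 4.0.16 quasi-likelihood fit as 4 groups (R 4.3.3, robust, edgeR's default low-count filter, trimmed mean of M values scaling, 8 residual degrees of freedom), with Benjamini-Hochberg adjustment over all genes or transcripts and a threshold of 0.05. The code was tested on simulated data. Alternatives were DESeq2 1.42.0, limma-voom (limma 3.58.1), relative log expression scaling, other low-count filters, each contrast's libraries alone, each library left out, and KO replicates 6 and 12 left out together. The same alternatives for list counts were added after seeing the data. Members and lists were chosen with earlier results of these data known. Named were all members, their transcripts with at least 10% of a gene's count in a group, list genes called between genotypes, up to 2 called list genes per direction over time (largest change at 5 CPM or more), and the 2 genes most like each member. Some Ikzf1 and Ikzf3 transcripts with smaller shares were named as well. Of 12 cell type marker lists, the other 8 lists besides marginal zone, plasma, T and NK cells had 0 genes called between genotypes. In the T cell list Zap70 was called at 0 hr, and in the NK list Prf1 at 48 hr. Values of 1 list gene are not reported here. Figures were drawn with matplotlib 3.10.9.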

Additional observations from a re-analysis of the deposited data

Results flagged for a closer look

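For Mef2b, the KO against WT effect at 48 hr less that at 0 hr was 1.30 on the log2 scale and passed edgeR's test of that difference (adjusted p = 0.0291). All KO libraries were above all WT libraries at 48 hr and below them at 0 hr.

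Pou2af1 also moved in opposite directions without overlap. It was at 806, 786 and 804 CPM in KO 48 hr against 608, 578 and 631 CPM in WT 48 hr, and at 326, 390 and 307 CPM in KO 0 hr against 446, 502 and 430 CPM in WT 0 hr. The difference between the effects was 0.83 on the log2 scale and missed the threshold (edgeR adjusted p = 0.0761).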

How the results depend on the processing

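No result changed direction past the threshold in any alternative. No paired analysis was possible because the replicate numbers run from 1 to 12 and the groups share none. Members called for KO against WT at 0 hr were 0 with that contrast's libraries alone, and members called over time in KO were 3 without KO replicates 6 and 12 together. With a minimum of 1 CPM in 3 libraries they were 7 in KO (6 lower) and 6 in WT (5 lower), against 5 in each as reported. All genes called at 0 hr were 645 with DESeq2, 75 with the contrast's libraries alone and 674 without replicates 6 and 12 (212 as reported). At 48 hr they were 1069 with DESeq2, 193 with limma-voom and 1351 without replicates 6 and 12 (386 as reported). For the difference in response they were 220 with DESeq2 and 136 without replicates 6 and 12 (22 as reported). Of the genes called at 48 hr, 73.1% were higher in KO, against 63.8% under relative log expression scaling and 54.9% with DESeq2. Among transcripts, DESeq2 called 2 members at 0 hr, 2 at 48 hr and 1 for the difference in response. All transcripts called at 0 hr were 863 with DESeq2, 150 with limma-voom, 13 with the contrast's libraries alone and 197 without replicates 6 and 12 (83 as reported). At 48 hr they were 1097 with DESeq2, 72 with the contrast's libraries alone and 409 without replicates 6 and 12 (125 as reported). For the difference in response they were 474, 1 with limma-voom and 30 without replicates 6 and 12 (3 as reported). The cause was not tested. The difference in response uses all libraries, so it was not run on fewer.

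With 1 library left out, genes called ranged from 79 to 426 at 0 hr, 136 to 1080 at 48 hr, 13047 to 14345 over time in WT, 12681 to 13671 over time in KO, and 3 to 90 for the difference in response. Members called ranged from 0 to 1, 0 to 0, 3 to 6, 2 to 5 and 0 to 0 in that order. Transcripts called ranged from 40 to 148, 47 to 358, 16402 to 19273, 16114 to 18034 and 0 to 26, and member transcripts from 0 to 0, 0 to 0, 16 to 20, 13 to 15 and 0 to 0. With 3 libraries a group, Id1 and Ikzf2 were limited by their low counts.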
